A study of Homo sapiens with 24 samples.

Results

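Tight junction genes were followed in HER2-positive human breast carcinoma lines in which TFAP2C was knocked down. TFAP2C encodes AP-2gamma, a transcription factor of the mammary epithelium. The 9 genes encode 5 claudins (CLDN1, CLDN3, CLDN4, CLDN7 and CLDN12), occludin (OCLN), tricellulin (MARVELD2), junctional adhesion molecule A (F11R) and the scaffold ZO-1 (TJP1). They were taken by name, out of 27431 gene symbols, from 3 genome-wide tables of the authors, and all 9 were tested in each table. RNA of 24 samples was sequenced, 3 in each of 8 groups. SKBR3 and HCC1954 cells received Negative control siRNA#2 or TFAP2C siRNA ID:107041 with a lipid reagent for 72 to 96 h. In addition, HCC1954 cell clones stably carried a lentiviral shRNA, either the control SHC002 or the TFAP2C shRNA TRCN0000019745. The sources used here do not say how many clones stood behind a group. All cells were at passage 5 to 10, and the submitters state that they did not authenticate the lines. A further siRNA pair in HCC1569 comes as a table of 68 genes that holds 0 of the 9 and is not used below.

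Levels are FPKM, fragments scaled by transcript length and by the fragments mapped, so they can be compared between genes. Each group has 1 pooled value per RefSeq accession, and a gene's level is the sum over its accessions. No replicate spread exists for a level, and the depth of the samples is unknown. The test of a change is that of the authors' deposited table, read at 1 accession per gene, the most abundant by its mean over the 6 groups. A gene is said to rise or fall only where that q was under 0.05. The standard error (SE) beside a log2 ratio is the ratio divided by the authors' statistic, over 3 samples against 3. Nothing says that the 3 samples of a group were separate cultures, so the p-values reflect no more than how these samples vary, and that variation may be technical. In bulk RNA, fewer cells of a type and less RNA per cell cannot be told apart.

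Tight junctions seal the space between neighbouring epithelial cells near their apical side and separate apical from basolateral membrane. Claudins are multi-pass membrane proteins whose extracellular loops form the seal and its pores, and the mix of claudins in a cell sets how tight and how ion-selective the seal is. Occludin and tricellulin share the MARVEL membrane domain, F11R is an immunoglobulin-like adhesion protein, and ZO-1 ties them to actin. Low claudin 3, 4 and 7 is a defining trait of the claudin-low class of breast tumours.

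Upstream sequence is shown for CLDN1 and CLDN3, the genes whose levels ranged most widely over the 6 groups. Both come from RefSeq start sites (GRCh38.p14) and were placed on GRCh37 by an exact and single match. Each run holds the 250 bases before the start site, 5′ to 3′ on the gene's strand. The CLDN1 run is chr3:190040236-190040485 and the CLDN3 run chr7:73184601-73184850 (GRCh37), both on the minus strand. Capitals mark the letters GCCNNNGGC, an AP-2 consensus.
CLDN1: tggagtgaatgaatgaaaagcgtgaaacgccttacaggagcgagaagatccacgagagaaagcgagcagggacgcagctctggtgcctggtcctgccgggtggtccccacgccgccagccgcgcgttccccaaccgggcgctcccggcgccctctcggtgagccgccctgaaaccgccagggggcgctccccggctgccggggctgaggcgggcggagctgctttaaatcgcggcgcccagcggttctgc
CLDN3: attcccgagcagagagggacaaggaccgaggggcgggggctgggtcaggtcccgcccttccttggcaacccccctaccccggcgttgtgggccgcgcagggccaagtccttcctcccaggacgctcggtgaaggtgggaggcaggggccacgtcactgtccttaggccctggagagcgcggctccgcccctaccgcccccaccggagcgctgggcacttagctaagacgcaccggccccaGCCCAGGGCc

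The CLDN3 run holds the AP-2 letters 10 bases before the start site, and a further match lies in the 50 bases after it. The CLDN1 window has none. RefSeq start windows of 300 bases were present for 8 of the 9 genes (all but F11R), 13 windows in all. The AP-2 letters, which read the same on both strands, occurred in 2 of these 13, those of CLDN3 and CLDN12, and in 23.2% of 35116 windows over all genes. CAGGTG on either strand, the E-box that Snail proteins bind, occurred in 5 of the 13, in CLDN3, CLDN7, OCLN and TJP1, and in 20.6% of all windows. AACCGGTT, a grainyhead consensus, occurred in 0 of the 13 and in 0.134% of all windows. No search pattern contains another. These matches describe letters and were not measured as binding.

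TFAP2C itself fell in each comparison, from 157 to 53.9 FPKM in SKBR3, from 92.4 to 22.0 FPKM with siRNA in HCC1954 and from 81.0 to 3.46 FPKM with shRNA. The shRNA knockdown group stood apart from its control. Across 15065 genes its Spearman correlation with that control was 0.784, against 0.971 and 0.950 for the siRNA pairs of SKBR3 and HCC1954. SKBR3 control cells reached 0.803 with the same shRNA control. The shRNA knockdown group reached 0.659 with the HCC1954 siRNA control and 0.750 with SKBR3 control cells. Those 2 siRNA controls, of different lines, reached 0.723 with each other. These are correlations across genes, which are not replicates, and they cross tables that were normalized separately. Of 8 breast epithelial markers, 7 or 8 were at 1 FPKM or more in each group. E-cadherin (CDH1) was at 0.0894 FPKM in SKBR3 control cells, and the HER2 gene ERBB2 was at 1109 FPKM in the same cells and at 4676 and 1525 FPKM in the HCC1954 siRNA and shRNA controls. In the shRNA knockdown group ERBB2 fell to 20.8 FPKM and KRT7 from 639 to 0.550 FPKM, while KRT19 rose from 19.9 to 634 FPKM. Of 6 leukocyte markers CD68 held most of the signal, at 29.5 and 36.6 FPKM in the SKBR3 pair and between 4.64 and 9.29 FPKM in HCC1954, and PTPRC was at most 0.0694 FPKM in any group. Of 9 fibroblast and mesenchymal markers LUM was listed at 0 in all 6 groups, but others were present. Fibronectin (FN1) was at 220 FPKM in the shRNA control and 2.70 FPKM in its knockdown group, and between 9.75 and 26.6 FPKM in the siRNA groups. Vimentin (VIM) was at 5.46 and 0.672 FPKM in the shRNA pair.

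In control cells CLDN4 was the most abundant of the 9 genes and CLDN1 and CLDN3 separated the lines. CLDN4, a claudin of tight epithelia, stood at 730.0 FPKM in SKBR3, 628 FPKM in HCC1954 with control siRNA and 400 FPKM in HCC1954 with control shRNA. CLDN7, a claudin found along the lateral membrane as well, came next in the siRNA controls at 284 and 287 FPKM, and ranked below CLDN1 in the shRNA control at 90.3 FPKM. Among genes at 1 FPKM or more, CLDN4 and CLDN7 stood at percentiles of 99.5 and 98.4 in SKBR3 and of 99.3 and 98.1 in the HCC1954 siRNA control.

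CLDN1, which is needed for the skin barrier, was the lowest of the 9 in SKBR3 control cells at 3.12 FPKM. It stood at 64.9 and 141 FPKM in the HCC1954 controls with siRNA and shRNA. CLDN3 had the opposite order, with 120 FPKM in SKBR3, 16.6 FPKM in HCC1954 with control siRNA and 7.27 FPKM with control shRNA. Highest over lowest control was 45.1-fold for CLDN1 and 16.5-fold for CLDN3, against 1.28-fold for MARVELD2 and 1.55-fold for F11R. F11R stood at 100.4, 91.3 and 64.7 FPKM in SKBR3, the HCC1954 siRNA control and the shRNA control. The other 4 genes lay between 7.02 and 47.5 FPKM in all controls, namely CLDN12 (19.1, 22.5 and 47.5 FPKM), TJP1 (13.5, 31.0 and 27.4 FPKM), OCLN (17.5, 14.4 and 8.30 FPKM) and MARVELD2 (7.02, 7.48 and 8.95 FPKM). Levels in different tables were normalized separately, so these orders carry no test, and neighbours in them may not differ. The HCC1954 controls differed from each other too, with 3.18-fold more CLDN7 under control siRNA than under control shRNA.

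**Figure D1:**
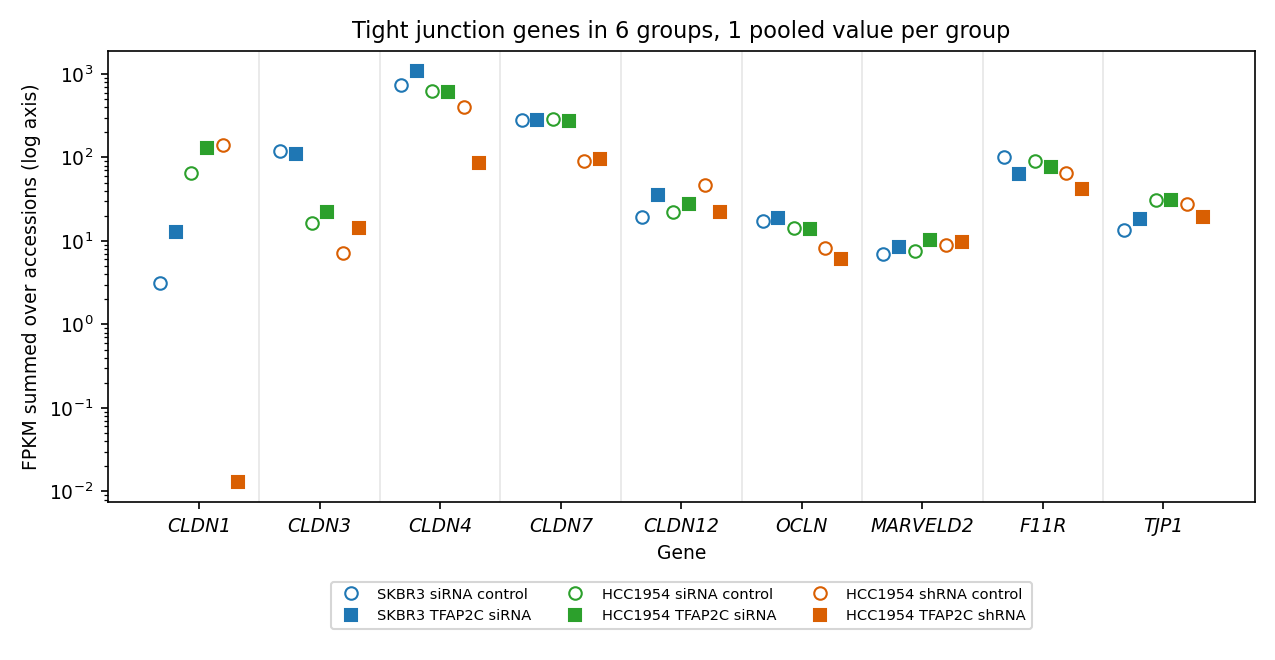
FPKM summed over accessions (log axis) of the 9 genes in 6 groups, with open circles for controls and filled squares for TFAP2C knockdown, 1 pooled value per group. CLDN1 spans from 0.0131 FPKM in the shRNA knockdown group to 141 FPKM in its control, while MARVELD2 stays between 7.02 and 10.2 FPKM.

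In SKBR3, TFAP2C siRNA was followed by higher CLDN1 and CLDN4, by a rise of 1 accession of TJP1 and by lower F11R. Of the 9 genes 3 rose, 1 fell and 5 were not called. Over all genes tested in this comparison 12.3% rose and 21.0% fell, 33.3% in either direction. The median log2 ratio of summed FPKM was 0.27 over the 9 genes and -0.09 over all 9903 tested.

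CLDN1 (chromosome 3, 190023490 to 190040235, minus strand, locus of the authors' table on GRCh37) rose from 3.12 to 12.7 FPKM, 4.06-fold, with a log2 ratio of 2.02 ± 0.30 (SE) and q = 4.41e-04 in the authors' deposited table. CLDN4 (chromosome 7, 73245193 to 73247023, plus strand) rose from 730.0 to 1078 FPKM, 1.48-fold, with a log2 ratio of 0.56 ± 0.20 (SE) and q = 4.41e-04 in the same table. It added more FPKM than any other of the 9 genes, and the knockdown level was the highest CLDN4 value of the 6 groups.

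TJP1 (chromosome 15, 29991571 to 30261127, minus strand) rose from 13.5 to 18.1 FPKM in summed level, 1.34-fold. The accession read here, NM_001355013, rose from 5.54 to 8.92 FPKM (q = 5.44e-03 in the authors' deposited table) and held 41.1% of the gene's control signal. NM_001355015 was at 4.45 and 4.96 FPKM and not called (q = 0.718). Among accessions that the authors did not test, NM_175610 was at 2.30 and 0.968 FPKM and NM_001330239 at 0.0846 and 2.04 FPKM. F11R (chromosome 1, 160964996 to 160991133, minus strand) fell from 100.4 to 63.5 FPKM, 1.58-fold. Its tested accession fell by 0.85 ± 0.22 (SE) on the log2 scale, with q = 4.41e-04 in the authors' deposited table. F11R was thus the 1 called gene of the 9 that was lower here.

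The other 5 genes were not called in SKBR3. CLDN12 (chromosome 7, 90032648 to 90045268, plus strand) was at 19.1 in control and 35.9 FPKM in knockdown cells. On that strand its GENCODE gene overlaps the coding genes GTPBP10, CDK14 and PTTG1IP2. Neither tested accession of CLDN12 was called. NM_001185073 was at 7.71 and 19.8 FPKM (q = 0.144 in the authors' deposited table) and NM_012129 at 11.4 and 16.1 FPKM (q = 0.371). OCLN (chromosome 5, 68788119 to 68853931, plus strand) was at 17.5 and 19.1 FPKM and MARVELD2 (chromosome 5, 68710939 to 68737890, plus strand) at 7.02 and 8.45 FPKM. CLDN3 (chromosome 7, 73183327 to 73184600, minus strand) was at 120 and 110 FPKM, and CLDN7 (chromosome 17, 7163222 to 7167302, minus strand in the GENCODE annotation) at 284 and 279 FPKM. The authors' locus of CLDN7 joins it to its neighbours, and in GENCODE a coding gene without a symbol, ENSG00000262302, overlaps it by 2187 bases on the same strand and ELP5 by 38 bases on the other. F11R likewise shares 23387 bases with ENSG00000270149 on its own strand, so reads of these genes may be split. No source used here states that counting used strand.

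With the same siRNA in HCC1954, CLDN1 alone of the 9 passed the threshold. It rose from 64.9 to 129 FPKM, 1.98-fold, with a log2 ratio of 0.99 ± 0.30 (SE) and q = 4.25e-03 in the authors' deposited table. Against this 1 rise of 9, 2.31% of all tested genes rose. None of the 9 fell at that q, against 0.965% of all tested genes, and 3.28% were called in either direction. At an unadjusted p under 0.05 the authors' Cuffdiff test gave 3 higher and 1 lower. The median log2 ratio was 0.00 over the 9 and -0.01 over all 10763 tested genes with a ratio.

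Apart from CLDN1, the HCC1954 siRNA values lay close to their controls. CLDN4 was at 628 and 608 FPKM, CLDN7 at 287 and 270 FPKM, OCLN at 14.4 and 13.7 FPKM and TJP1 at 31.0 and 31.1 FPKM. The larger uncalled ratios were those of MARVELD2, at 7.48 and 10.2 FPKM (q = 0.222 in the authors' deposited table), CLDN3, at 16.6 and 22.4 FPKM (q = 0.208), CLDN12, at 22.5 and 27.6 FPKM, and F11R, at 91.3 and 76.2 FPKM (q = 0.451). The columns of this table do not name its line, which was taken from the table's name and as the siRNA line otherwise without a table.

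CLDN1 therefore rose after siRNA in both lines, from controls that differed in level. In the same comparisons a list of 9 fibroblast and mesenchymal markers was also higher in summed level, at 10.4 and 27.4 FPKM in SKBR3 control and knockdown cells and at 20.4 and 36.1 FPKM in HCC1954. Fibronectin (FN1) made up most of it in each group, and rose in SKBR3 from 9.75 to 26.6 FPKM. With siRNA in HCC1954 FN1 was at 15.2 and 21.4 FPKM and not called (q = 0.962 in the authors' deposited table), and vimentin (VIM) rose from 3.81 to 12.6 FPKM. In each SKBR3 group 1 of the 9 markers reached 1 FPKM, and in each HCC1954 siRNA group 3 did. COL1A1 was at 1.33 and 1.95 FPKM in the HCC1954 siRNA pair, and COL1A2 and COL3A1 were at most 0.121 FPKM in the siRNA groups of both lines. A list of 7 endothelial markers was at 29.7 and 51.6 FPKM in SKBR3 and at 31.7 and 20.0 FPKM in HCC1954. In SKBR3, CDH5 (10.8 and 29.2 FPKM) and ESAM (18.7 and 22.2 FPKM) held most of that sum. In HCC1954, PECAM1 (27.0 and 18.5 FPKM) and CDH5 (4.04 and 0.559 FPKM) did. The part of these markers in the result was not tested.

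**Figure D2:**
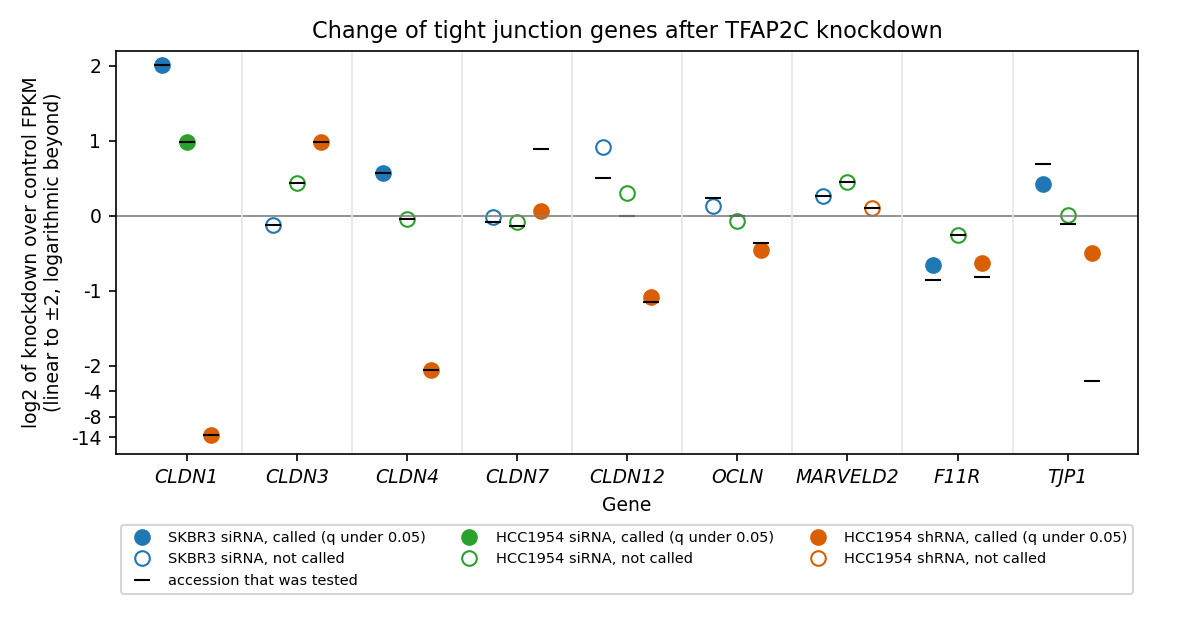
Log2 of knockdown over control FPKM, summed over accessions (circles, filled where called at q under 0.05) and for the tested accession (black dashes), for the 9 genes in 3 comparisons. The axis is linear to ±2 and logarithmic beyond. CLDN1 lies above 0 in both siRNA comparisons and at -13.39 with shRNA, and circle and dash part most for TJP1 and CLDN7 with shRNA.

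Stable shRNA in HCC1954 was followed by the loss of nearly all CLDN1 signal and by lower CLDN4, CLDN12, OCLN and F11R. For TJP1 1 accession fell, while CLDN3 and 1 accession of CLDN7 rose. Of the 9 genes, each read at its tested accession, 6 fell, 2 rose and MARVELD2 was not called. In this comparison 39.2% of all tested genes fell and 36.3% rose, so that 75.4% were called in all. The median log2 ratio was -0.49 over the 9 genes and -0.03 over all 9381 tested genes with a ratio. The knockdown group stands apart from its control in most genes, as given above. The clones may differ in more than TFAP2C, and the shRNA and the clone cannot be told apart. The knockdown group is called HCC1954 by its labels alone, and whether its cells are of that line was not tested.

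CLDN1 fell from 141 FPKM, its highest level in any group, to 0.0131 FPKM (q = 1.21e-04 in the authors' deposited table). The size of that fall is poorly defined, with a log2 ratio of -13.39 ± 15.3 (SE), and it came to -7.13 when 1 FPKM was added to both levels. CLDN4 fell from 400 to 84.9 FPKM, 4.71-fold, with a log2 ratio of -2.23 ± 0.13 (SE) and q = 1.21e-04 in the authors' deposited table. CLDN4 was the most abundant of the 9 genes in each of the other 5 groups, and here it came second to CLDN7.

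CLDN3 rose from 7.27 to 14.4 FPKM, 1.97-fold, with a log2 ratio of 0.98 ± 0.44 (SE) and q = 1.21e-04 in the authors' deposited table. It lies close to CLDN4, which fell, on chromosome 7. The CLDN3 knockdown level stayed below that of any SKBR3 group. CLDN7 was at 90.3 and 94.6 FPKM in summed level. Its tested accession NM_001185022 rose from 21.9 to 40.5 FPKM (q = 3.85e-03 in the authors' deposited table), and NM_001307 was at 45.5 and 28.6 FPKM, not called (q = 0.0779). The call for CLDN7 thus describes 1 accession and not the gene's total.

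Apart from TJP1, given below, the remaining calls were falls smaller than that of CLDN4. CLDN12 fell from 47.5 to 22.4 FPKM in summed level, 2.12-fold. Its accession NM_012129 had a log2 ratio of -1.15 ± 1.10 (SE) and q = 6.59e-03 in the authors' deposited table. NM_001185073, also tested, was at 11.4 and 6.11 FPKM and not called (q = 0.423). In summed level OCLN fell from 8.30 to 6.03 FPKM, 1.38-fold, and F11R from 64.7 to 41.7 FPKM, 1.55-fold. Their tested accessions fell 1.29-fold for OCLN (q = 4.58e-04) and 1.77-fold for F11R (q = 1.21e-04), both in that table. MARVELD2 was at 8.95 and 9.61 FPKM (q = 0.341). F11R was the 1 gene of the 9 that fell in more than 1 comparison.

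TJP1 showed how far the choice of accession matters. NM_001355013, the accession tested, fell from 14.8 to 1.80 FPKM, 8.25-fold (q = 5.65e-04 in the authors' deposited table). The summed level went from 27.4 to 19.5 FPKM, 1.41-fold. NM_001355015 was at 5.52 and 9.54 FPKM and not called (q = 0.0821). NM_175610, at 0.687 and 4.30 FPKM, and NM_001301026, at 0.00101 and 3.86 FPKM, were not tested by the authors. The tested accession held 54.0% of TJP1 signal in shRNA control cells and 9.20% in the knockdown group, against 84.5% and 78.2% in the siRNA pair of the same line. The split of reads among overlapping transcripts is an estimate of the authors' tool, and its error is unknown here.

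**Figure D3:**
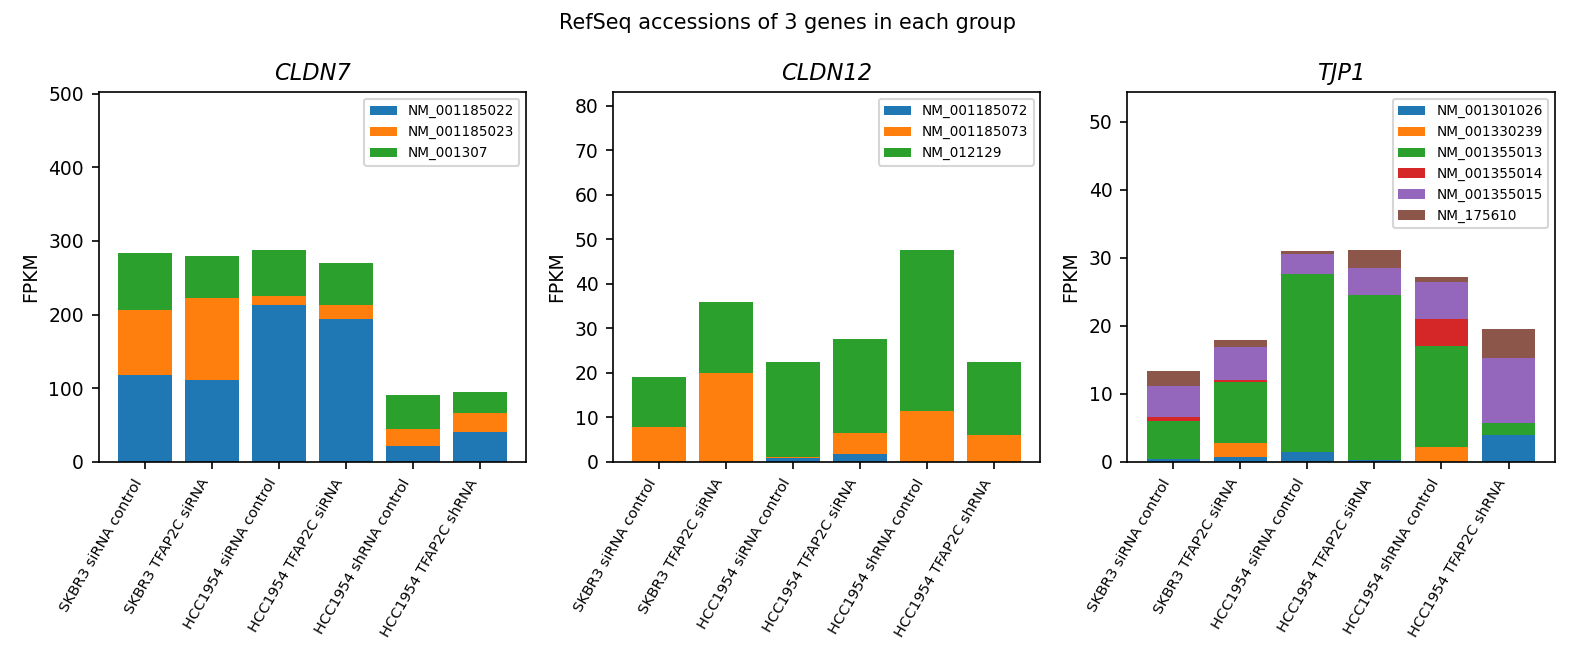
FPKM by RefSeq accession (stacked bars from 0) of CLDN7, CLDN12 and TJP1 in 6 groups, with up to 6 accessions per gene. TJP1 loses most of NM_001355013 in the shRNA knockdown group, while its total goes from 27.4 FPKM in control to 19.5 FPKM.

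The claudins were also summed as a family. The genome-wide tables hold 24 numbered claudins, and the 5 described here carried between 88.7% and 98.3% of claudin FPKM in each group. Their sum with the others was 1177 and 1543 FPKM in SKBR3, 1047 and 1085 FPKM with siRNA in HCC1954, and 773 and 226 FPKM with shRNA, control before knockdown. These totals have no test. With shRNA the total was 3.42-fold lower.

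CLDN4 made up 62.0% of claudin FPKM in SKBR3 control and 69.9% in knockdown cells, and 59.999% and 56.0% in the HCC1954 siRNA pair. With shRNA its share was 51.7% in control and 37.6% in knockdown cells, where CLDN7 had 41.9%. The share of CLDN1 was 0.265% and 0.821% in SKBR3, 6.19% and 11.8% with siRNA in HCC1954, and 18.2% and 0.00579% with shRNA. Between 7 and 9 claudins reached 1 FPKM in a group. Among those outside the 5, CLDN8 stood out in HCC1954. It was at 65.9 FPKM in the shRNA control, was listed at 0 in the knockdown group (q = 1.21e-04 in the authors' deposited table), and was at 13.0 and 11.2 FPKM in the siRNA pair.

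**Figure D4:**
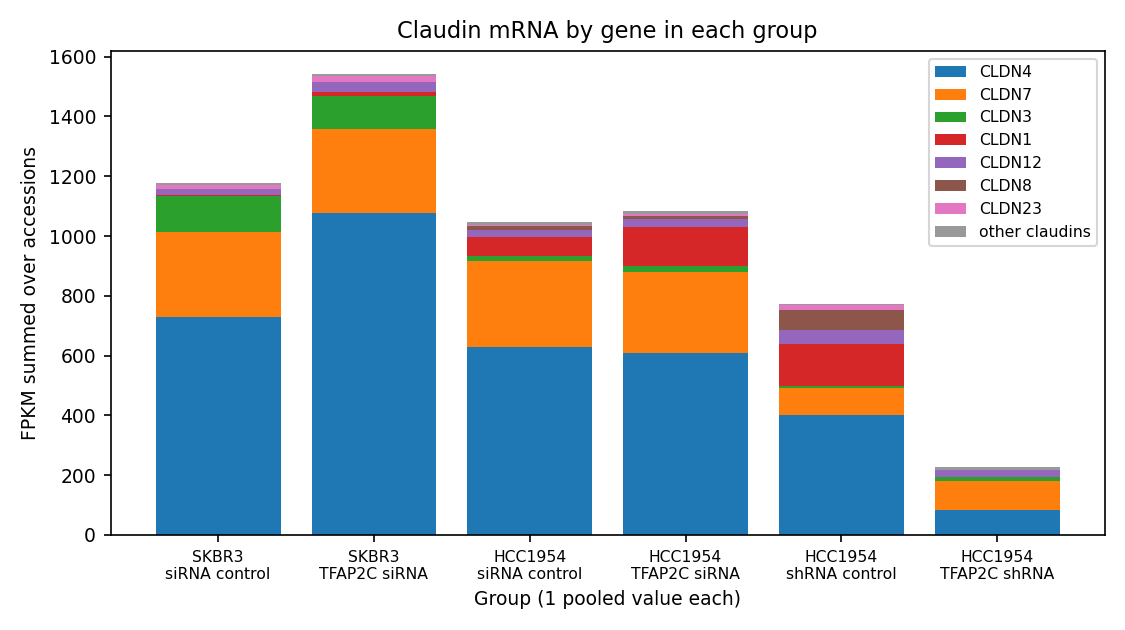
Summed FPKM of claudin genes (stacked bars from 0) in 6 groups, 1 pooled value each. CLDN4 and CLDN7 make up most of each bar, and the shRNA knockdown bar ends at 226 FPKM against 773 FPKM for its control.

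Differences between comparisons were tested by z, the difference of 2 log2 ratios over their combined standard error. Adjustment was by Benjamini-Hochberg over all accessions compared, and the comparisons share no samples. The z test is a normal approximation that rests on the authors' errors from 3 samples a group, so the intervals are given and no p is printed. Between SKBR3 and HCC1954 siRNA, 0 of the 9 genes differed at an adjusted p under 0.05, against 0.331% of 12403 accessions. At an unadjusted p under 0.05 CLDN1 differed, with a log2 ratio 1.03 lower in HCC1954 (95% interval -1.86 to -0.21). For CLDN4 the HCC1954 ratio was 0.61 lower (interval -1.37 to 0.15). F11R fell in SKBR3 and was not called in HCC1954, and the difference of 0.59 had an interval of -0.14 to 1.32. With these standard errors no gene of the 9 was shown to differ between the lines after adjustment. That outcome depends on the errors used: with errors from the deposited p-values CLDN3, CLDN4 and TJP1 differed. The CLDN1 interval then ran from -2.12 to 0.05.

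Between siRNA and shRNA in HCC1954, CLDN4 was the 1 gene of 9 that differed, against 9.70% of 11562 accessions. Its log2 ratio was 2.19 lower with shRNA (interval -2.88 to -1.49). CLDN1 had opposite calls and a difference of -14.38, but the interval ran from -44.28 to 15.52. For TJP1 the difference was -2.93 (interval -5.98 to 0.12). With standard errors taken from the deposited p-values instead, 6 of the 9 differed, among them CLDN1, against 41.1% of accessions, and between the lines 3 differed, CLDN3, CLDN4 and TJP1, against 8.05%.

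Other junction genes were counted by named lists. In SKBR3, 7 of 19 tested scaffold and polarity genes rose and 2 fell, against 12.3% and 21.0% of all tested genes. PARD6B, a subunit of the apical polarity complex, rose from 8.60 to 20.2 FPKM and PATJ, a Crumbs complex scaffold, from 12.04 to 16.9 FPKM. SYMPK, which encodes the plaque protein symplekin, fell from 11.9 to 9.001 FPKM and MAGI3 from 9.75 to 8.11 FPKM. The list's median log2 ratio was 0.07, against -0.09 over all genes tested.

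Among other membrane proteins of the tight junction, 2 of 6 tested genes rose in SKBR3 and 0 fell in the Cuffdiff test (0 also at an unadjusted p under 0.05). Over all tested genes 12.3% rose and 21.0% fell. EPCAM, a partner of claudin 7, rose from 105 to 139 FPKM. CLDN15 rose from 4.64 to 6.17 FPKM, 1 of 2 tested claudins outside the 5.

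Of 9 tested adherens junction genes 2 rose and 2 fell in SKBR3. Over all genes tested in SKBR3 12.3% rose and 21.0% fell. NECTIN4 rose from 33.5 to 48.4 FPKM and vinculin (VCL) from 110 to 133 FPKM, while NECTIN1 fell from 35.1 to 15.8 FPKM. NECTIN2 fell at its tested accession, from 32.9 to 24.1 FPKM, with 59.2 and 60.6 FPKM in sum. Among 11 epithelial transcription factors 3 rose and 1 fell: KLF5 rose from 16.2 to 36.2 FPKM, ELF3 from 223 to 291 FPKM and GRHL1 from 50.6 to 62.2 FPKM, and the splicing regulator ESRP2, on the same list, fell from 30.8 to 22.1 FPKM. Of 7 tested junction proteases and inhibitors, PRSS8 (prostasin) rose from 242 to 336 FPKM, and ST14 (matriptase) fell from 106 to 77.9 FPKM and ADAM15 from 78.1 to 57.9 FPKM.

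With siRNA in HCC1954, calls on these lists were few, as over all tested genes, of which 2.31% rose and 0.965% fell. Of 5 tested membrane genes 1 rose. SNAI2, a repressor of epithelial genes, rose from 6.60 to 13.4 FPKM, 1 of 2 tested factors of epithelial-mesenchymal transition. None of 21 scaffold and polarity genes, 11 adherens junction genes, 11 epithelial transcription factors, 8 proteases and inhibitors or 4 other claudins was called in the authors' deposited table. At an unadjusted p under 0.05 the Cuffdiff test gave 0, 2, 1, 0 and 1 higher and 2, 1, 0, 1 and 0 lower in these lists.

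With shRNA most tested genes of these lists were called, as were 75.4% of all tested genes. The factors of epithelial-mesenchymal transition, with 0 of 2, were the exception. Of 21 scaffold and polarity genes 11 fell and 7 rose, against 39.2% and 36.3% of all tested genes. AMOTL1, an angiomotin family scaffold, fell from 38.4 to 1.74 FPKM and MPDZ from 8.74 FPKM to a level listed at 0. PARD6G rose from 2.19 to 13.4 FPKM, MAGI1 from 2.32 to 13.4 FPKM and PARD6A from 2.21 to 8.85 FPKM. The list's median log2 ratio was -0.76, against -0.03 over all genes tested.

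Of 6 tested membrane genes 3 fell and 2 rose with shRNA, against 39.2% and 36.3% of all tested genes. CXADR, an adhesion receptor of the junction, fell from 42.7 to 19.8 FPKM and MARVELD3 from 30.8 to 24.3 FPKM, while EPCAM rose from 112 to 161 FPKM. LSR, which recruits tricellulin to corners between cells, rose at its tested accession, from 48.5 to 68.1 FPKM, with 124 and 108 FPKM in sum. CLDN23 fell from 16.3 to 2.47 FPKM, so that both tested claudins outside the 5 fell.

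Of 12 adherens junction genes tested with shRNA, 9 fell and 1 rose. Over all genes tested in this comparison 39.2% fell and 36.3% rose. CDH1 fell from 149 to 20.7 FPKM, VCL from 86.9 to 33.7 FPKM and NECTIN4 from 7.89 to 0.480 FPKM, and NECTIN3 rose from 0.956 to 32.5 FPKM. Of 11 epithelial transcription factors 9 fell and 2 rose, with GRHL1 from 43.8 to 4.10 FPKM, ELF3 from 200 to 24.4 FPKM and KLF5 from 102 to 14.1 FPKM. OVOL1 rose from 2.92 to 5.07 FPKM, and the intestinal factor CDX2, listed at 0 in control cells, was at 9.75 FPKM. Of 8 proteases and inhibitors 7 fell and 1 rose, with SPINT1, a matriptase inhibitor, from 191 to 43.6 FPKM, ADAM15 from 83.4 to 31.1 FPKM and PRSS8 from 62.0 to 34.0 FPKM, and MMP14 from 1.40 to 11.2 FPKM upward. None of 2 tested factors of epithelial-mesenchymal transition was called by the Cuffdiff test, and none had an unadjusted p under 0.05. SNAI2 was at 12.9 FPKM in control and 0.201 FPKM in knockdown cells, with a log2 ratio of -6.01 and q = 0.22 in the authors' deposited table. SNAI1 was at 6.51 and 6.39 FPKM, and TWIST2, not tested by the authors, was at 2.48 FPKM and then listed at 0. In the same comparison the summed level of the 8 epithelial markers, of which 6 fell and 2 (KRT19 and EPCAM) rose, was 3949 FPKM in control and 2016 FPKM in knockdown cells, and that of the 9 fibroblast and mesenchymal markers 226 and 5.12 FPKM. Their part in the falls above was not tested.

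**Figure D5:**
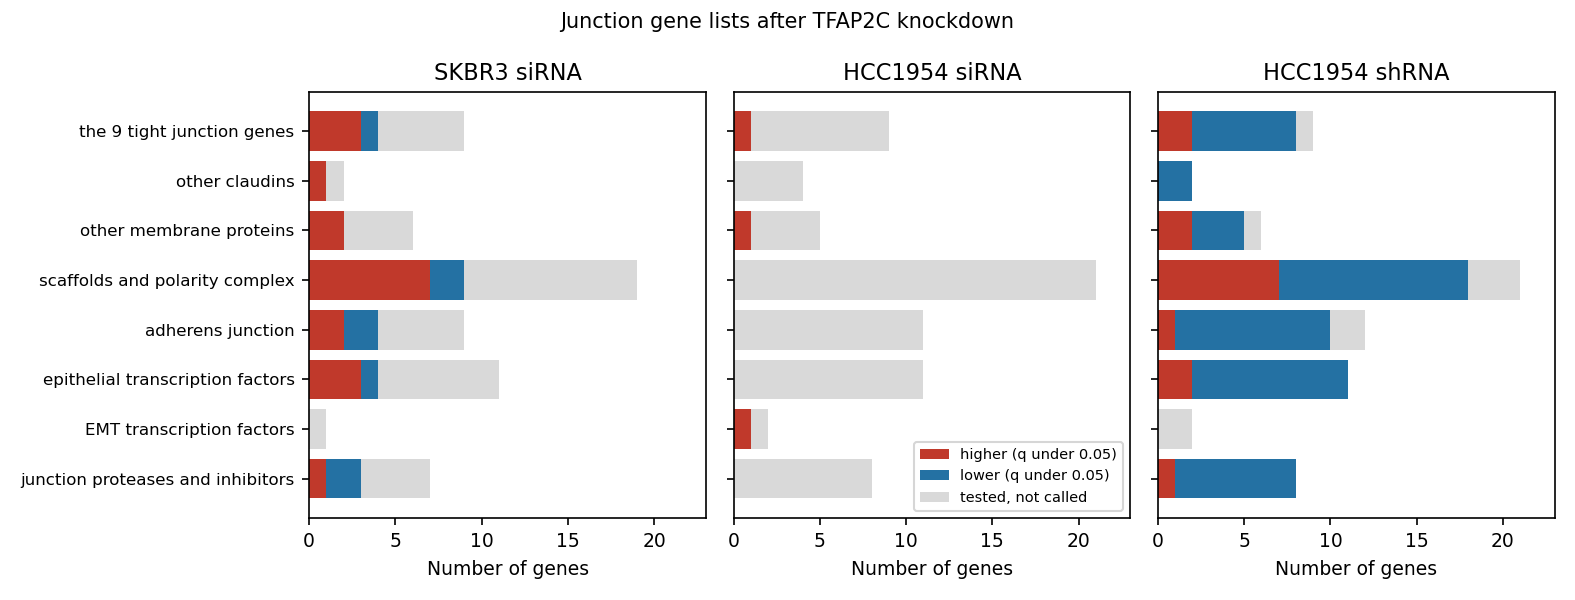
Number of tested genes called higher, called lower or not called (stacked bars from 0) in the 9 tight junction genes and 7 other junction gene lists, for 3 comparisons. In the scaffold and polarity list 9 of 19 genes are called in SKBR3, 0 of 21 with siRNA in HCC1954 and 18 of 21 with shRNA.

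Over the 6 groups the 9 genes did not share 1 profile. Pearson's r of log2(FPKM + 1) was highest for CLDN7 with OCLN (0.932) and for CLDN4 with OCLN (0.929), and lowest for CLDN3 with TJP1 (-0.751). CLDN1 and CLDN3, whose levels ranged most, had r = -0.389 with each other. Among 11841 genes at 5 FPKM or more in a group, the profiles most like that of CLDN1 were FNTA (r = 0.993), SNAP29 (0.992) and PICALM (0.989). Those most like CLDN3 were SEC24C (0.994), ACBD5 (0.991) and PLBD2 (0.990). Each r rests on 6 pooled values that share lines and tables, and it is a description only.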

How the data were processed

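RNA sequencing of 24 samples was analysed from the authors' comparison tables. Per the submitters' processing notes, the tools included Bowtie 0.12.2 and Cuffdiff, for which no version was found, and the build was hg19 (GRCh37). FPKM, 1 value per accession and group, the test statistic (a score), and the p-value and q-value are the authors' deposited values, per the file headers. No column holds 1 sample, so no model over samples could be fitted. Of 66321 accessions 65468 matched a symbol through NCBI RefSeq names, and 853 did not. FPKM was summed per symbol, with no pseudocount and no filter on low values. Other steps used Python 3.11.15, pandas 2.3.3 and scipy 1.17.1. The deposited statistic and p often imply different standard errors, so both were used in the z test. A simulation of that test drew its noise from the same statistic-based errors that the test assumes. It therefore could not check those errors, and it did not cover the errors from p. Members, lists and tests were chosen with earlier results of these data known. Genes named from a list are the up to 3 called genes per direction with the largest ratio of summed FPKM and at least 1 FPKM in a group. Some genes that this rule names are not reported here. The alternatives were another accession, q under 0.01, other adjustments, pseudocounts of 0.1 and 1, 2 scalings and other standard errors.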

Additional observations from a re-analysis of the deposited data

Results flagged for a closer look

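The change of CLDN4 from control to knockdown group differed between the shRNA and siRNA comparisons of HCC1954. The log2 ratio was -0.05 with siRNA and -2.23 with shRNA, a difference of -2.19 (95% interval -2.88 to -1.49), past an adjusted p of 0.05 in a z test over 11562 accessions. CLDN4 was the 1 gene of 9 to pass, against 9.70% of those accessions. With standard errors from the deposited p-values 6 of the 9 passed, against 41.1%. The shRNA clones differ from their control in most genes, and the shRNA and the clone cannot be told apart.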

How the results depend on the processing

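The counts of called members in SKBR3 and with siRNA in HCC1954 were the same at a q threshold of 0.01, with the most abundant accession of each table, with any accession, with p adjusted over 1 accession per symbol and with a filter at 1 FPKM. With shRNA the 6 falls were kept in number, and the 2 rises became 1 with the most abundant accession of that table, since NM_001307 of CLDN7 was not called there and had a log2 ratio of -0.67, against 0.89 for the accession tested. The members that differed between lines numbered 3 in place of 0, and between siRNA and shRNA 6 in place of 1, with standard errors from the deposited p. Of 27 log2 ratios, pseudocounts of 0.1 and 1 moved 1 by over 1.5-fold (CLDN1 with shRNA, -10.28 and -7.13), the single accession moved 2 (CLDN7, 0.89, and TJP1, -3.04, with shRNA), and the scalings moved 0. Upper quartile scaling shifted shRNA ratios by 0.11. Under the pseudocounts, the scalings and the single accession no called ratio changed sign, and 6 values of uncalled ratios did, among them CLDN12 with siRNA in HCC1954 (0.30 in sum, -0.01 for its accession). No paired analysis was possible because the tables hold 1 pooled value per group, and for the same reason no replicate could be left out. Depth is unknown, so a level near 0 has no floor.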
